A study of Arabidopsis thaliana with 2 samples.

Results

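The longest transcripts in a table of ribosome-bound RNA from Arabidopsis thaliana flower buds were examined, chosen by length alone. A nuclear gene was taken when any of its listed mRNAs reached 7000 nt, and its longest listed mRNA was used. The rule found 89 of the 31070 nuclear genes listed, and 10 of the 89 had more than 1 listed isoform. No expression or structure value entered the rule, though the members were chosen with earlier results of these data known.

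The material was immature, unopened flower bud clusters of the wild-type accession Col-0, with no other genotype and no treatment of the plants in the labels. It gave 2 libraries, 1 per assay. The ssRNA-seq library was deposited as a list of hotspots, which are short strand-specific stretches of the genome. Its label names an enzyme called dsRNase and gives RNase ONE, an enzyme known to cut unpaired RNA, so whether a hotspot marks paired or unpaired RNA was not settled here. The ribo-seq library was made from RNA of pooled monosomes and polysomes that was fragmented after isolation. It therefore measures how much of an mRNA was bound to ribosomes, with no position of a ribosome on it. With 1 library per assay no difference has a replicate check, no test was made, and the 95% intervals below cover counting error only.

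Very long mRNAs in plants code for very large proteins, among them kinases of the PIKK family, ubiquitin ligases, scaffold proteins of membrane traffic, chromatin remodelers and the core of the spliceosome. Ribosome-bound RNA of such a gene gives many fragments per molecule, so levels are compared here per length, as RPKM, the deposited value in which weighted clones are scaled to the size of the library and to each kb of listed mRNA. A clone is a sequenced fragment. The authors weighted each clone, and the mean weight, weighted over unweighted clones, is 1 where no clone of a gene was weighted down.

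The length rule did not give a uniform set of mRNAs. In the RefSeq annotation of TAIR10.1, 46 of the 89 loci were protein-coding and 43 were pseudogenes. Each of the 43 pseudogenes had 1 exon, and its listed length equalled the whole span of the locus, which held for 0 of the 46 protein-coding genes. The label of very long mRNAs therefore goes against the annotation for the 43 pseudogenes, and the classes are described apart. The protein-coding members had a median of 23 exons, with a range of 7 to 77, and listed lengths of 7031 to 16176 nt. The pseudogenes were listed at 7011 to 15195 nt. The longest protein-coding mRNA was that of AT1G67120, annotated as a midasin-like protein that acts in assembly of the large ribosomal subunit, at 16176 nt. After it came BIG, a protein of polar auxin transport, at 15465 nt. The next 3 were the pseudogenes AT5G28263 at 15195 nt, AT1G43060 at 14623 nt and AT5G30269 at 14591 nt.

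Flower genes marked the tissue in the ribosome-bound library. The floral homeotic gene PI was at 7.71 RPKM, SEP3 at 2.57, AP3 at 1.99, AP1 at 1.33 and AG at 0.852. Of the root markers, IRT1 was at 0.282 RPKM, EXPA7 at 0.169 and PHT1;1 was listed at 0, and of the seed markers SESA4 was at 0.182 and OLEO1 was listed at 0. The library held 9574408 mapped clones, and the hotspot list held 33187 hotspots, of which 32785 were nuclear.

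Ribosome-bound RNA was listed above 0 for all 89 loci, and its level differed by class. Of the 30548 nuclear genes with annotated exons, 4091 were at 0. From 4000 to under 7000 nt 0 protein-coding genes were at 0, and from 5000 to under 7000 nt 0 pseudogenes were. The median level was 0.332 RPKM in the protein-coding members (quartiles 0.183 and 0.527) and 0.0351 RPKM in the pseudogene members (quartiles 0.0179 and 0.0484), 9.45 times as high in the protein-coding members. By unweighted clones the ratio was 3.46. The protein-coding members lay above the median of 0.194 RPKM of all 26633 nuclear protein-coding genes, a median that includes genes at 0. Of the 46 protein-coding members, 33 were above that value (71.7%), against 50.0% of all nuclear protein-coding genes by construction. The share was also 71.7% in protein-coding genes from 6000 to under 7000 nt. It was 70.8% from 5000 nt, 66.3% from 4000 nt, 63.3% from 3000 nt and 59.7% from 2000 nt, each to under the next length named. A share above 50.0% was therefore not particular to the members. Of the 43 pseudogene members, 2 were above the protein-coding median (4.65%), against 6.13% of all nuclear pseudogenes. Levels thus differed between the classes, and the share above the median was lower in shorter protein-coding genes. Within the protein-coding members the listed length and the RPKM had a Spearman rho of -0.02 over 46 genes, which share 1 library.

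More clones fell on the protein-coding members than on most genes. They had a median of 24.3 weighted clones (range 4.5 to 254), against 2.64 for all nuclear protein-coding genes. At least 10 were found for 39 of 46, against 5477 of all 26633 and 40 of the 46 from 6000 to under 7000 nt. The pseudogene members had a median of 2.82 weighted clones, from 0.177 to 22.7. Of these 43, 2 had at least 10, against 103 of all 3901 nuclear pseudogenes. In all, 1918.8 weighted clones fell on the protein-coding members and 164.03 on the pseudogene members. Single values of the pseudogenes are therefore imprecise.

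Hotspots also differed between the classes. At least 1 same-strand exonic hotspot was found on 47 of the 89 loci (52.8%), against 46.2% of all nuclear genes with annotated exons. Among the protein-coding members it was 45 of 46 (97.8%, exact binomial interval 88.5 to 99.9), against 52.6% of all nuclear protein-coding genes. Among the pseudogene members it was 2 of 43 (4.65%, interval 0.568 to 15.8), against 2.72% of all nuclear pseudogenes. The 45 genes carried 366 hotspots with 24554 exonic nt and the 2 pseudogenes carried 2 hotspots with 113 nt. None of these hotspots also lay in a same-strand exon of another annotated gene (0 of 366 and 0 of 2).

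**Figure D1:**
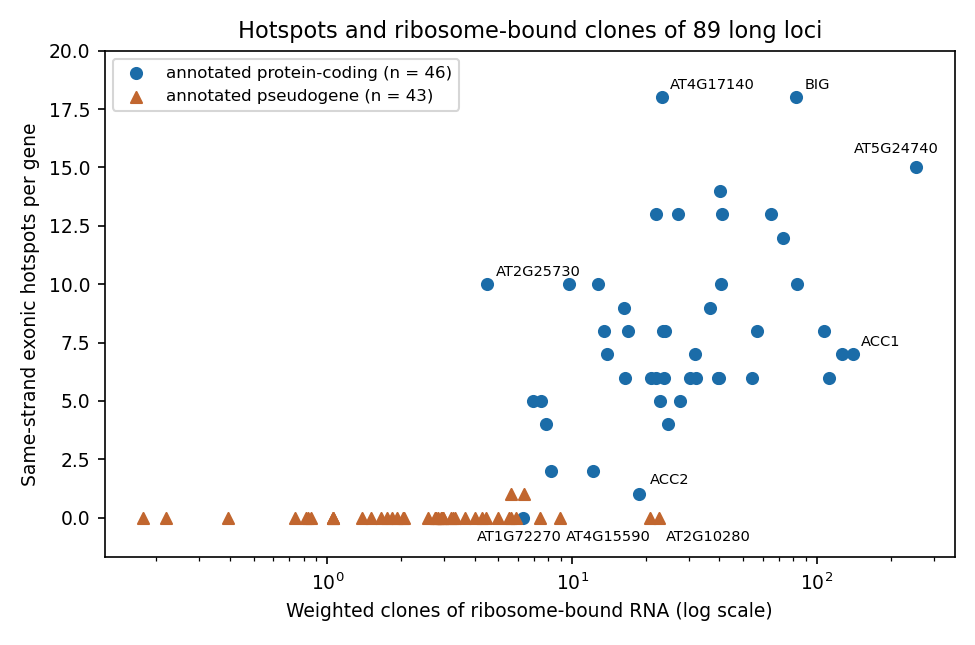
Same-strand exonic hotspots per gene (vertical axis) against weighted ribosome-bound clones (horizontal log axis) for the 46 protein-coding members, as circles, and the 43 pseudogene members, as triangles. The protein-coding members reach 18 hotspots, in BIG and AT4G17140, while 41 pseudogene members sit at 0 and the other 2 at 1.

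Within the same broad ranges of weighted clones the classes still differed in hotspots, though they were not matched inside a range. Between 3 and 10 weighted clones, 6 of 7 protein-coding members had a hotspot, with a median of 5 per gene, and 2 of 15 pseudogene members had 1. Between 10 and 30 weighted clones all 19 protein-coding members had between 1 and 18, and both pseudogene members had 0. Of these 2, AT2G10280 had its 22.7 weighted clones from 164 clones with a mean weight of 0.138. The RNA level in the ssRNA-seq library is not known, and ribosome-bound clones need not follow it.

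A gene of greater length offers more sequence in which to find a hotspot, so the count was also taken per kb of annotated exon. The protein-coding members had a median of 0.795 hotspots per kb (quartiles 0.687 and 1.03), against 0.379 for all nuclear protein-coding genes. Hotspot bases came to a median of 57.2 nt per kb in the protein-coding members, against 21.9 nt per kb in all nuclear protein-coding genes. Across protein-coding genes in steps of 1000 nt of listed length, the share with a hotspot was 27.2% below 1000 nt, 56.6%, 76.7%, 88.8%, 90.9% and 92.9% in the next 5 steps, 100% for the 46 genes from 6000 to under 7000 nt, and 97.8% for the members. Hotspots per kb, pooled over the genes of a step, were 0.432 below 1000 nt, 0.777 in the step from 3000 nt, 0.761 in that from 5000 nt, 0.875 in that from 6000 nt and 0.842 for the members. Both measures were thus higher with each step up to 5000 nt, and the members lay close to the genes of the step from 6000 nt. The share of pseudogenes with a hotspot was 1.23% below 1000 nt, 2.14%, 3.16%, 2.54%, 6.59%, 3.27% and 5.08% in the next 6 steps, and 4.65% for the members. Per kb, the pooled pseudogenes were highest at 0.0375 in the step from 4000 nt and lowest at 0.00525 in the members.

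**Figure D2:**
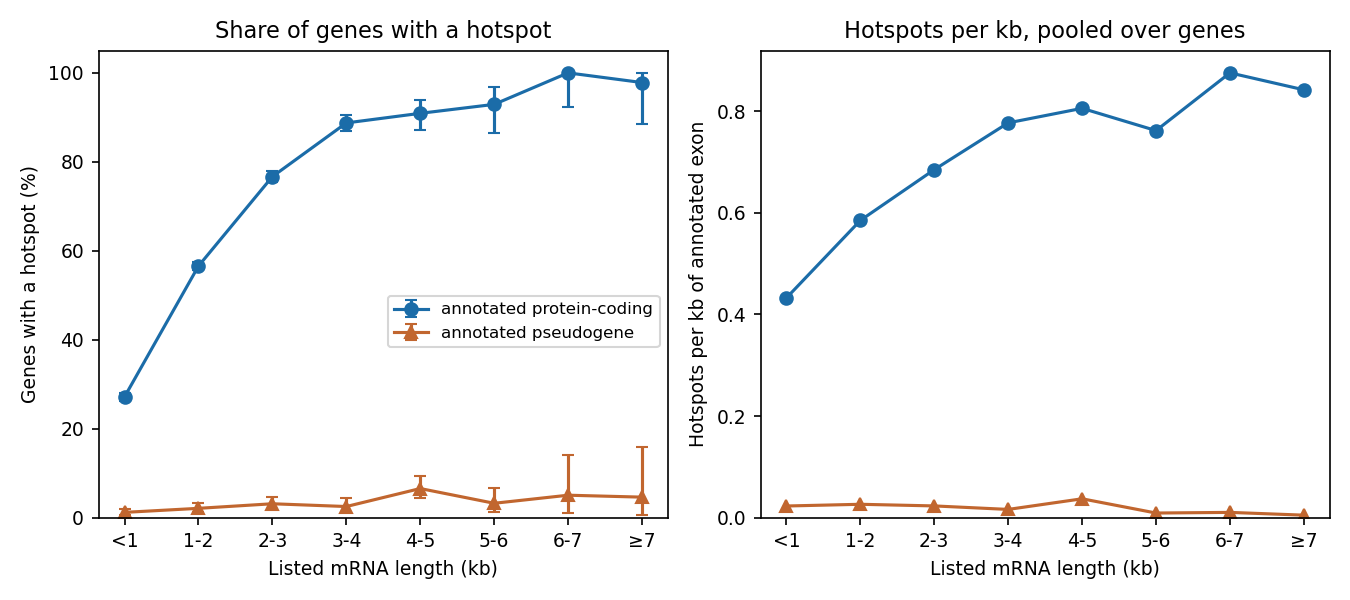
Share of genes with a hotspot in percent with exact 95% binomial intervals (left) and hotspots per kb of annotated exon pooled over genes (right), by listed mRNA length in kb, for protein-coding genes (circles) and pseudogenes (triangles). Protein-coding genes are highest in the step from 6000 nt, at 100% and 0.875 per kb. The members at the right end are at 97.8% and 0.842 per kb, and pseudogenes stay at or under 6.59%.

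The protein-coding members held 366 of the 28142 same-strand exonic hotspots counted on nuclear protein-coding genes, and 0.955% of the exon bases of those genes. Of all nuclear hotspots, which include those outside such exons, the protein-coding members held 1.12%. Their hotspots were of ordinary size, with a median of 64 nt (range 50 to 174), the same median as for all nuclear hotspots. Hotspot scores, which are all below 0 and are taken here as stronger the further they lie below it, had a median of -3.02 on the protein-coding members and -2.62 over all nuclear hotspots. Stronger than the nuclear median were 55.2% on the protein-coding members and 48.8% of all nuclear hotspots. The strongest score was -3.59 among the 366 hotspots on the protein-coding members and -16.4 among all 32785 nuclear hotspots. These extremes come from sets of very unlike size and are not compared. Within the protein-coding members, annotated length and the number of hotspots had a rho of 0.657. Length and hotspots per kb had a rho of 0.281, RPKM and hotspots per kb 0.228, GC content and hotspots per kb 0.0599, and exon number and hotspots per kb 0.0775, each over 46 genes that share both libraries.

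What the classes share apart from length differed as well. A median of 0.406% of the exon 20-mers of a protein-coding member was found elsewhere in the genome, against 49.5% in a pseudogene member, and 20 of 43 pseudogene members but 0 of 46 protein-coding members reached 50%. The median GC content was 42.6% in the protein-coding members and 42.0% in the pseudogene members. The median protein-coding member had 132 protein-coding genes within 250 kb, and the median pseudogene member had 24, with 22 of 43 pseudogene members and 0 of 46 protein-coding members under 30. ACC1 and ACC2, neighbours on chromosome 1, were the protein-coding members in the sparsest surroundings, with 33 genes each.

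The mean weight per clone was 0.658 in the median protein-coding member and 0.210 in the median pseudogene member. It was under 0.5 in 10 of 46 protein-coding members and in 41 of 43 pseudogene members. Over the 43 pseudogene members the share of repeated 20-mers and the mean weight had a rho of -0.67, and over the 46 protein-coding members the rho was -0.12. How far the weights set the low RPKM of the pseudogene members was not tested; the unweighted ratio of 3.46 is given above.

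**Figure D3:**
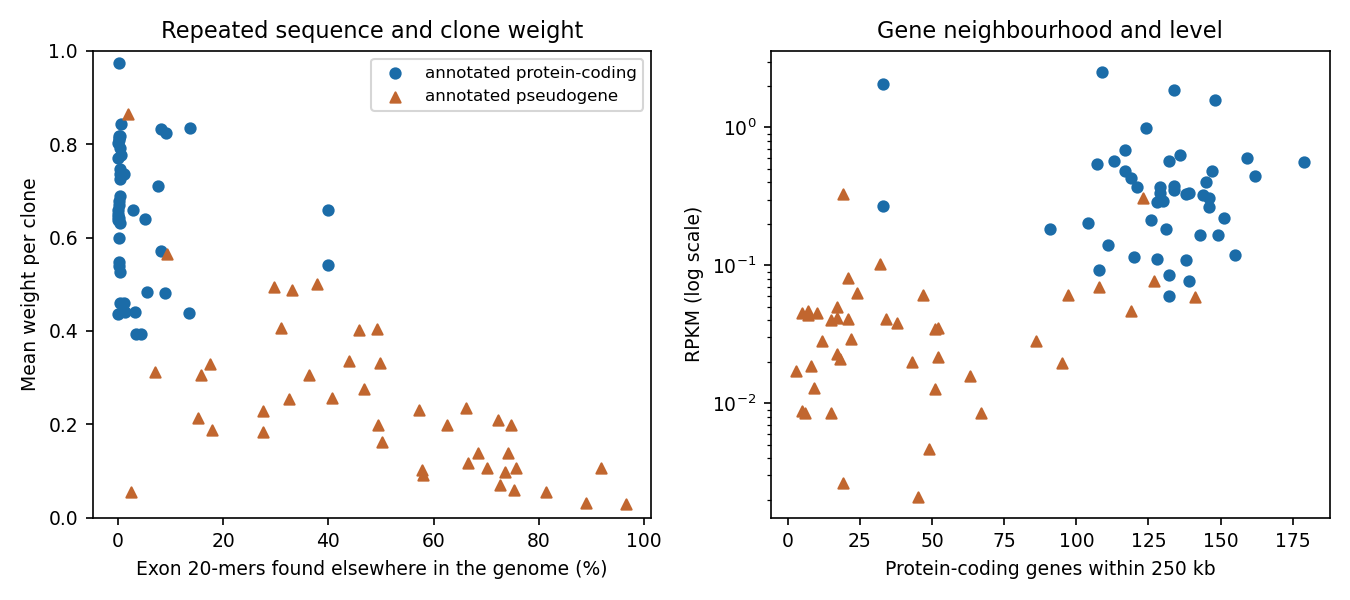
Mean weight per clone against the percent of exon 20-mers found elsewhere in the genome (left) and RPKM on a log scale against the number of protein-coding genes within 250 kb (right), for protein-coding members (circles) and pseudogene members (triangles). Protein-coding members lie at a median of 0.406% repeated 20-mers and pseudogene members at 49.5%, and the protein-coding members have 33 to 179 protein-coding neighbours.

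Among the pseudogene members, 4 carried long exact direct repeats between their outer 1500 nt, with over 10% of the 20-mers of that window shared between the ends, and 0 of 46 protein-coding members did. The longest exact repeat was 178 nt in AT4G05585, 156 nt in AT3G29615, 149 nt in AT5G30269 and 71 nt in AT1G40101. The copies in AT4G05585 lie 7004 nt apart on the minus strand of chromosome 4 in TAIR10.1. Their opening 60 bases, at chr4:2875622-2875681 for the copy nearer the 5′ end, are shown as an example of such a repeat.
AT4G05585: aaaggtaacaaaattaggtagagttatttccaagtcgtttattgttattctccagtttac
These 4 loci had 0.0347 RPKM (AT4G05585), 0.0351 RPKM (AT3G29615), 0.0185 RPKM (AT5G30269) and 0.00848 RPKM (AT1G40101), none with a hotspot.

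AT2G10280 had the highest ribosome-bound level of the pseudogene members, 0.328 RPKM (interval 0.207 to 0.493), from 164 clones with a mean weight of 0.138. Of its 20-mers 74.1% occurred elsewhere. The next, AT4G15590, had 0.309 RPKM (interval 0.190 to 0.473) from 24 clones with a mean weight of 0.864, and 1.90% of its 20-mers occurred elsewhere. Both lacked a hotspot. A similar level thus came from many heavily weighted-down clones at AT2G10280 and from few clones of nearly full weight at AT4G15590.

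At the low end, AT2G13390 had 0.00210 RPKM, AT3G30668 0.00263, AT3G43304 0.00468, AT1G40101 0.00848 and AT2G01029 0.00851. Each rested on at most 1.05 weighted clones. AT2G13390, with 0.0295, AT3G30668, with 0.0312, AT3G28865, with 0.0547, AT3G43304, with 0.0560, and AT5G35643, with 0.0588, had the lowest mean weights of all members. The pseudogenes with a hotspot were AT1G47860, with a 57 nt hotspot near its 5′ end at 69 to 125 nt, and AT3G60965, with a 56 nt hotspot at 7407 to 7462 nt. Their levels were 0.0692 and 0.0591 RPKM, and they were also the 2 pseudogene members that overlap another annotated gene.

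The 46 protein-coding members spanned 0.0599 to 2.53 RPKM. The highest was AT5G24740 (SHBY), annotated as a vacuolar sorting-associated protein, at chr5:8469711-8489867 on the minus strand, with 46 exons. It had 2.53 RPKM (interval 2.23 to 2.86), from 254 weighted clones with a mean weight of 0.974, and 15 hotspots. ACC1, an acetyl-CoA carboxylase that makes malonyl-CoA for fatty acids, had 2.08 RPKM (interval 1.75 to 2.46), and GLT1, the NADH-dependent glutamate synthase of nitrogen assimilation, had 1.87 RPKM (interval 1.56 to 2.23). Neighbouring intervals in this order overlap, and those of AT5G24740 and GLT1 meet at their ends. SUS2, the Prp8 protein at the heart of the spliceosome, had 1.59 RPKM (interval 1.31 to 1.91), and the next gene, the ubiquitin ligase UPL2, had 0.995 RPKM (interval 0.815 to 1.20, below that of SUS2). The others of the highest 10 were AT1G48090, a calcium-dependent lipid-binding protein, at 0.682 RPKM, the ubiquitin ligase UPL1 at 0.629, SPI, a BEACH-domain protein, at 0.601, AT3G50370, an uncharacterized protein, at 0.573 and AT5G24350 (MIP2) at 0.570.

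**Figure D4:**
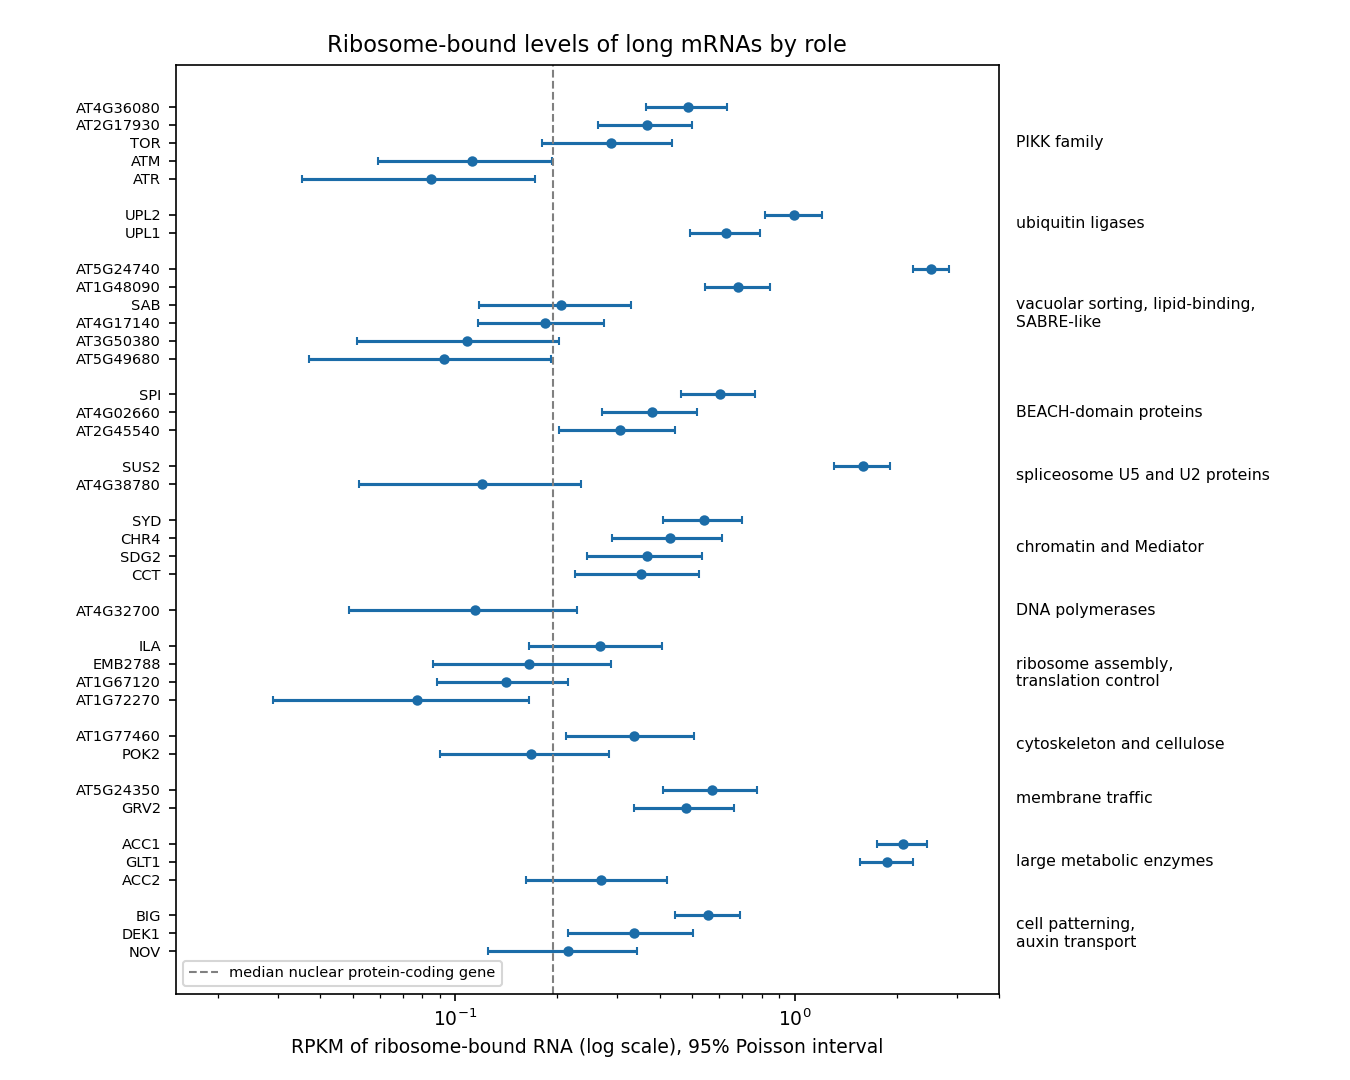
RPKM of ribosome-bound RNA on a log scale with 95% Poisson intervals on weighted clones for the protein-coding members in the role lists, grouped by role, with a dashed line at the median of nuclear protein-coding genes, 0.194. AT5G24740 is highest at 2.53 and AT1G72270 lowest of those shown at 0.0770.

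The PIKK-family list held 5 members, among them the kinases TOR, which senses nutrients, and ATM and ATR, which respond to DNA damage. The growth regulator TOR had 0.288 RPKM, with 6 hotspots on 8200 annotated nt. The DNA damage kinases were lower, ATM at 0.112 RPKM (interval 0.0593 to 0.193) and ATR at 0.0851 RPKM (interval 0.0355 to 0.171). The interval of ATR lay below the protein-coding median of 0.194, and that of ATM ended just under it. The listed length of ATM, by which its RPKM is scaled, was 11880 nt, more than the 9734 nt annotated. AT4G36080 and AT2G17930, annotated as phosphatidylinositol kinase family proteins, had 0.485 and 0.368 RPKM. All 5 had hotspots, between 5 in ATR and 10 in ATM and AT2G17930, beside 45 of all 46 protein-coding members (97.8%). The first hotspot of ATR began at 5401 nt of its 9295 nt mRNA, so 58.1% of the mRNA from its 5′ end held none.

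The list of vacuolar sorting-associated, lipid-binding and SABRE-like proteins, large proteins at membranes, had 6 members with levels between 0.0928 and 2.53 RPKM. Below AT5G24740 and AT1G48090 came SAB, which acts in cell expansion, at 0.204 RPKM, AT4G17140, with a PH domain, at 0.184, AT3G50380 at 0.109 and AT5G49680 at 0.0928. From the highest to the lowest level the 6 genes had 15, 10, 9, 18, 10 and 5 hotspots. AT4G17140 had its 18 hotspots, with 1027 hotspot nt, on 23.2 weighted clones, and AT3G50380 had 10 hotspots on 9.67 weighted clones.

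BEACH-domain proteins act in membrane traffic and cell shape. The 3 members SPI, AT4G02660 and AT2G45540 had 0.601, 0.379 and 0.306 RPKM, with 13, 6 and 13 hotspots. The shorter AT3G60920 of the same list, below the length limit, had 0.0223 RPKM and none. AT2G45540 held 12 of its 13 hotspots between 1089 and 4121 nt of its 9625 nt mRNA.

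In membrane traffic, AT5G24350 (MIP2), annotated as a neuroblastoma-amplified sequence protein, had 13 hotspots with 912 nt on an mRNA of 7577 nt. That was 1.72 hotspots per kb, the highest of all members. They lay in a 5′ group ending at 3623 nt and a 3′ group beginning at 6740 nt, with 3116 nt between them free of hotspots. GRV2, a DnaJ-domain protein similar to the endocytic RME-8 of Caenorhabditis elegans, had 0.480 RPKM and 9 hotspots. AT2G25730, a zinc finger FYVE domain protein, had the lowest level of the protein-coding members, 0.0599 RPKM (interval 0.0180 to 0.146) from 7 clones, and still had 10 hotspots with 757 nt.

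The 4 long genes of the chromatin and Mediator list lay between 0.352 and 0.540 RPKM. SYD, a SWI/SNF remodeler that co-activates floral homeotic genes, had 0.540 RPKM, the remodeler CHR4 0.430, the SET-domain histone methyltransferase SDG2 0.368 and CCT, the MED12 subunit of Mediator, 0.352. All 4 were above the protein-coding median and had 5 to 8 hotspots. Of all 46 protein-coding members, 71.7% were above that median and 97.8% had a hotspot. The 9 shorter genes of the list spanned 0.194 to 3.12 RPKM, the highest being the remodeler PKL. All 9 had a hotspot and 8 were above that median, beside shares of 90.9% to 100% with a hotspot and 66.3% to 71.7% above the median in protein-coding genes from 4000 to under 7000 nt. AT4G32700, a DNA polymerase related to MUS308 of Drosophila, had 0.115 RPKM and 4 hotspots.

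Genes of ribosome assembly and translation control were among the low members. EMB2788, annotated for biogenesis of the large ribosomal subunit, had 0.165 RPKM, AT1G67120 0.142 (interval 0.0886 to 0.214), AT1G72270, a nucleolar pre-ribosomal-associated protein, 0.0770 (interval 0.0291 to 0.165), and ILA, a HEAT-repeat protein of immunity, 0.267. Only ILA of these 4 was above the protein-coding median, beside 33 of all 46 protein-coding members (71.7%). AT1G72270 was the protein-coding member without a same-strand exonic hotspot, and it was also the member with a hotspot on the opposite strand. Its listed length of 8538 nt exceeded the 7385 nt annotated, so part of the listed mRNA was not searched. EMB2788 had 2 hotspots, the first at 4849 nt.

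Of the genes of cell patterning and auxin transport, BIG had 0.557 RPKM, with 18 hotspots and 1209 hotspot nt, the most hotspot bases of any member. DEK1, a membrane calpain needed for epidermal identity, had 0.336 RPKM and 6 hotspots, and NOV, a nuclear protein of vein patterning, had 0.215 RPKM and 8. In the cytoskeleton list, AT1G77460, annotated as cellulose synthase interactive 3, had 0.336 RPKM and 5 hotspots, and the kinesin POK2, which orients the phragmoplast in cell division, had 0.167 RPKM and 8.

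The remaining members outside the lists had levels between 0.182 and 0.447 RPKM. AT1G02080, annotated as a transcription regulator, had 0.447 RPKM and 6 hotspots, AT4G31570, annotated as a nucleoporin, 0.406 and 7, and AT5G40450, an A-kinase anchor-like protein, 0.327 and 4. AT2G46560, a WD-40 repeat protein, had 0.324 RPKM and 8 hotspots, and AT5G23110, a RING zinc finger protein, 0.295 and 14. AT4G30990, an ARM repeat protein, had 0.221 RPKM and 6 hotspots, and AT2G48060, a piezo-type mechanosensitive channel, 0.182 and 7. AT5G23110 held 1057 hotspot nt, after BIG the most of any member.

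Hotspots lay along the whole length of the long mRNAs. From the 5′ to the 3′ end, 5 equal parts of the annotated mRNA held 71, 82, 71, 82 and 60 of the 366 hotspots, or 19.4%, 22.4%, 19.4%, 22.4% and 16.4%. In protein-coding genes from 2000 to under 7000 nt the shares were 15.4%, 22.0%, 21.9%, 21.3% and 19.5% of 12801 hotspots. The 5′-most part thus held a larger share in the long mRNAs and the 3′-most part a smaller share. Hotspot bases of the members fell in 5′ UTRs for 3.01%, coding sequence for 93.5% and 3′ UTRs for 3.51%, close to the 3.12%, 93.2% and 3.69% of the annotated mRNA bases in these regions. The share of hotspot bases in 5′ UTRs was 0.962 times the share of mRNA bases there in the long mRNAs, and 0.558 times in the genes from 2000 to under 7000 nt. The members' 5′ UTRs held 738 hotspot nt in all, and neither difference was tested.

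**Figure D5:**
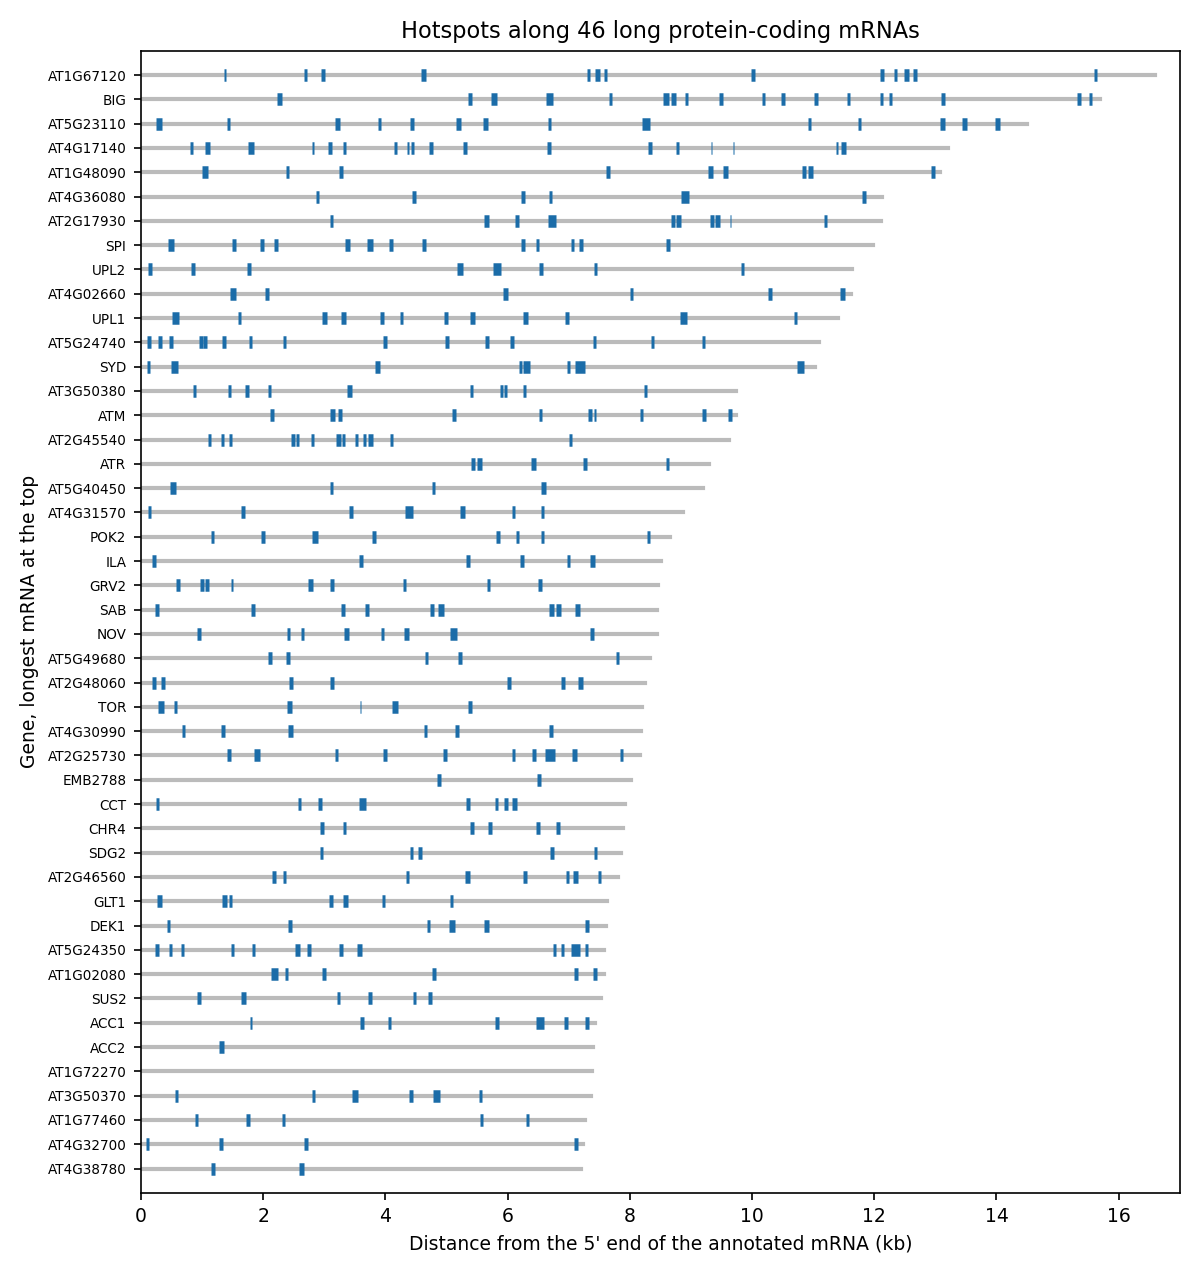
Hotspots (dark bars) along the annotated mRNA (grey line) of the 46 protein-coding members, by distance from the 5′ end in kb, with the longest mRNA at the top. Hotspots are spread over most mRNAs; ACC2 has 1, AT1G72270 has none, and the 5′ part of ATR up to 5401 nt is empty.

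A further 23 same-strand hotspots overlapped the loci of 14 protein-coding members but no exon of the longest annotated isoform. Of these, 6 were in AT2G25730. Exons of other isoforms were not set apart from introns in this count. Long stretches with no hotspot occurred in genes of low and of moderate level. Apart from AT1G72270, whose 7385 annotated nt held none, the longest ran over 6046 nt in ACC2, 5400 nt in ATR, 4848 nt in EMB2788, 4525 nt in AT4G38780 and 4356 nt in AT4G32700. The highest densities after AT5G24350 were 1.36 per kb in AT4G17140, 1.35 in AT5G24740, 1.35 in AT2G45540, 1.22 in AT2G25730, 1.15 in BIG, 1.08 in SPI, 1.07 in SAB, 1.06 in GRV2 and 1.05 in UPL1. The mRNAs with most hotspot bases after AT4G17140 and AT5G24350 were AT5G24740 with 907 nt, SPI with 892 nt, UPL1 with 883 nt, AT1G67120 with 789 nt and AT2G45540 with 759 nt.

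Several of the long proteins were encoded as pairs of close copies, and 6 pairs of members had a protein identity of at least 70%. The pairs matter for the counts, because fragments from an identical stretch cannot be assigned to a copy. The longest exact coding stretches that copies share are shown for the pairs whose shared stretch was longest and for the spliceosome pair, as 5′ to 3′ coding sequence in TAIR10.1.
UPL1 and UPL2: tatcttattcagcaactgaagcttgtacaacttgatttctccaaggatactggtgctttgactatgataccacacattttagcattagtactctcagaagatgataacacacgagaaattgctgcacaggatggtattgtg
ACC1 and ACC2: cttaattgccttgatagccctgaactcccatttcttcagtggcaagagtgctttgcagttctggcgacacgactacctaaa
AT2G17930 and AT4G36080: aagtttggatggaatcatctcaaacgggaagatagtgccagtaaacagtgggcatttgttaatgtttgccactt
SUS2 and AT4G38780: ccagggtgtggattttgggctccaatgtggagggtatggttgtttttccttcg
The stretch of 141 nt lies at chr1:20887808-20887948 in UPL1 and chr1:26496492-26496632 in UPL2, both on the minus strand. That of 81 nt lies at chr1:13538373-13538453 in ACC1 and chr1:13552945-13553025 in ACC2, both on the plus strand. That of 74 nt lies at chr2:7792716-7792789 in AT2G17930 and chr4:17068345-17068418 in AT4G36080, on the minus strand. That of 53 nt lies at chr1:30120473-30120525 in SUS2, on the plus strand, and chr4:18108534-18108586 in AT4G38780, on the minus strand.

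The copies of 2 pairs differed most in level. ACC1 and ACC2 were 90.2% identical in protein, and ACC1 had 2.08 RPKM and 7 hotspots, against 0.269 RPKM and 1 hotspot in ACC2, a ratio of 7.74 in RPKM. The only hotspot of ACC2 was a 77 nt stretch from 1282 to 1358 nt. SUS2 and AT4G38780 were 93.3% identical, and SUS2 had 1.59 RPKM and 6 hotspots, against 0.1196 RPKM and 2 hotspots in AT4G38780, a ratio of 13.3. In these pairs the copy of higher level had a mean weight of 0.835 (ACC1) and 0.825 (SUS2), and the other copy 0.438 (ACC2) and 0.481 (AT4G38780). With unweighted clones the ratios were 4.06 for ACC1 over ACC2 and 7.73 for SUS2 over AT4G38780.

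The other 4 pairs had RPKM ratios of 1.32 to 2.15, or 1.30 to 1.92 with unweighted clones. UPL2 had 0.995 RPKM and UPL1 0.629, a ratio of 1.58, while UPL2 had 8 hotspots and UPL1 12. They were the closest pair by sequence, with 93.3% protein identity and 41.4% of coding 20-mers shared, so more of their fragments could belong to either copy. Their mean weights, 0.659 (UPL2) and 0.540 (UPL1), were still not the lowest of the pairs. SPI and AT4G02660, with 3.39% of coding 20-mers shared, had 0.394 and 0.441. SPI had 0.601 RPKM and 13 hotspots, and AT4G02660, 80.2% identical in protein, 0.379 RPKM and 6 hotspots, with overlapping intervals. EMB2788 had 0.165 RPKM and 2 hotspots and AT1G72270, 73.0% identical, 0.0770 RPKM and none, with overlapping intervals. AT4G36080 had 0.485 RPKM and 6 hotspots and AT2G17930, 89.0% identical, 0.368 RPKM and 10 hotspots, also with overlapping intervals. The copy of higher level thus had more hotspots in 4 of the 6 pairs and fewer in the UPL and the AT4G36080 pairs. Which copy was higher is uncertain in the SPI, EMB2788 and AT4G36080 pairs, whose intervals overlapped.

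The limit of 7000 nt passed through a run of genes of both classes. Just inside it were AT4G15590 at 7011 nt with 0.309 RPKM, ACC1 at 7031 nt with 2.08 RPKM, AT5G35643 at 7041 nt with 0.0157 RPKM, GLT1 at 7064 nt with 1.87 RPKM and AT1G77460 at 7084 nt with 0.336 RPKM. Just outside it were the pseudogene AT3G30716 at 6998 nt with 0.00150 RPKM, the spliceosomal helicase emb1507 at 6976 nt with 1.21 RPKM, the DNA glycosylase DME at 6963 nt with 0.167 RPKM, MBD9 at 6947 nt with 0.340 RPKM and CSI1 at 6941 nt with 0.842 RPKM. Their hotspots numbered 0, 7, 0, 7 and 5 inside and 0, 2, 7, 10 and 9 outside.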

How the data were processed

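RNA of immature flower buds was measured with 1 ssRNA-seq and 1 ribo-seq library. The submitters' processing notes name Bowtie 0.12.7, cutadapt 0.9.5 and the build TAIR9. Methods of hotspot calling and clone weighting were not given in the sources used here. Deposited by the authors, per the file headers, were the count of clones, an estimated count of weighted clones, RPM and RPKM per listed mRNA. Each deposited hotspot has a score of unstated formula. From the values, the deposited RPM follows from the weighted clones and a total of 9574408. The depth of the ssRNA-seq library is unknown.

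Classes, exons and sequences came from RefSeq TAIR10.1, and hotspots are in TAIR9. As a check of register, 83.5% of nuclear hotspot bases lay in same-strand exons of protein-coding genes, against 65.7% after a move of 100 nt and 46.5% after 1000 nt. A hotspot was counted on the longest annotated isoform with at least 1 overlapping base. Of 31070 nuclear genes, 522 had no annotated exons and were left out of hotspot counts. Intervals are 95% exact binomial (genes) or Poisson (weighted clones). The Poisson intervals treat a sum of weighted clones as if it were a count, and leave out any error in the weights. They are therefore approximate, most of all where clones were heavily weighted down. Protein identity was taken from aligned translations of the annotated coding sequences (biopython 1.88). Python 3.11.15, pandas 2.3.3, numpy 2.4.6, scipy 1.17.1 and matplotlib 3.10.9 were used, and the hotspot counting was tested on simulated data.

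The members, the role lists and the split by class were chosen with earlier results of these data known, and the role lists were adjusted to the annotation after values had been seen. Named are the 10 members of highest RPKM, the 5 lowest, the 10 with most hotspot bases and most hotspots per kb, the members of the role lists, the close copies, the 5 of lowest mean weight, the 5 longest and the 5 genes on each side of the length limit. The protein-coding members outside the lists and the pseudogenes with end repeats or a hotspot were added after their values were seen.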

Additional observations from a re-analysis of the deposited data

How the results depend on the processing

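Over all 89 loci the values were 52.8% with a hotspot, 0.135 hotspots per kb, 10.4 hotspot nt per kb, 0.102 RPKM, 7.79 weighted clones and a mean weight of 0.460, each a median over a mixed set apart from the share. Of 40 alternatives, 24 stayed within the interval of the value and 16 moved out of it. With a length limit of 10000 nt the values were 63.6%, 0.706 hotspots per kb, 47.4 nt per kb, 0.239 RPKM and 31.5 weighted clones. With unweighted clones the median was 0.267 RPKM. The split by class was chosen after seeing the data: the protein-coding members gave 97.8%, 0.795 hotspots per kb, 57.2 nt per kb, 0.332 RPKM, 24.3 weighted clones and a weight of 0.658, and the pseudogene members 4.65%, 0.0351 RPKM, 2.82 weighted clones and a weight of 0.210. The share of hotspot bases in coding sequence, 93.5%, was 94.4% for members whose annotated length is within 5% of the listed length. Limits of 6000 and 8000 nt and an overlap of 25 bases kept the values they bear on within the interval. So did stronger hotspots and the isoform of highest RPKM. The interval was 0 to 0.687 for median hotspots per kb and 0 to 37.7 for median hotspot nt per kb. No fall could leave these intervals, so staying within them does not show that these medians were stable. Both medians fell to 0 with the limit of 6000 nt and with annotated lengths within 5% of the listed length. Both were also 0 in the pseudogene members.

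No paired analysis was possible because each assay has 1 library. Levels of the pseudogene members rest on few weighted clones, hotspots carry no depth, and the listed and annotated lengths were within 5% for 31 of the 46 protein-coding members.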
